A study of Mus musculus with 12 samples.

Results

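The tubulin genes described here are the 9 rows of the count matrix, out of 56691 genes, whose identifiers map to Tuba1a, Tuba1b, Tuba1c, Tubb2b, Tubb3, Tubb4b, Tubb5, Tubb6 and Tubg1. They were followed in mouse oocytes of 2 genotypes at 3 stages, with 2 libraries for each of the 6 groups. WT and constitutive Alkbh5-/- (KO) females were of C57BL/6 background and 3 weeks old, and were primed with pregnant mare serum gonadotropin before oocytes were taken. GV, GVBD and MII samples were oocytes frozen after 0 h, 4 h and 16 h in M16 medium, so KO pools taken at the later times may hold oocytes that had not reached the stage. Each library came from a small pool of oocytes freed of the zona pellucida, and the study calls the 2 pools of a group biological replicates without saying whether they came from separate females, so p-values measure the spread between pools.

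Microtubules are polymers of alpha- and beta-tubulin dimers, and gamma-tubulin starts new ones at the microtubule-organizing centres that build the spindle of the mouse oocyte, which lacks centrioles. Mammals carry several alpha and beta genes, called isotypes, whose proteins differ mostly near the C-terminus. Free tubulin also limits its own supply: the factor TTC5 binds the first amino acids of alpha- and beta-tubulin as they leave the ribosome, and with SCAPER and the CCR4-NOT deadenylase brings about decay of that mRNA. A fully grown oocyte is transcriptionally silent, and its stored mRNAs are translated or degraded on a schedule as meiosis resumes.

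The opening of each coding sequence is shown because it encodes the peptide that TTC5 reads, and because it shows how alike the members are. Each line gives the first 30 coding bases on GRCm38 from the GENCODE M21 transcript, with the first 12 bases in capitals. The coordinates of the 3 alpha genes span an intron. Sequence of Tubb6 is not shown.
Tuba1a, chr15:98951665-98953453, minus strand: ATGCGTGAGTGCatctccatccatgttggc
Tuba1b, chr15:98933169-98934335, minus strand: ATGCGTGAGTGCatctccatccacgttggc
Tuba1c, chr15:99030422-99034120, plus strand: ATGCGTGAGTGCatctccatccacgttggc
Tubb2b, chr13:34130204-34130233, minus strand: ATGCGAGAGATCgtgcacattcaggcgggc
Tubb3, chr8:123411606-123411635, plus strand: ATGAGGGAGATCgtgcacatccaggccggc
Tubb4b, chr2:25224561-25224590, minus strand: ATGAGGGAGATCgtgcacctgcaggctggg
Tubb5, chr17:35838024-35838053, minus strand: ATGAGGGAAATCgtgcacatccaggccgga
Tubg1, chr11:101120194-101120223, plus strand: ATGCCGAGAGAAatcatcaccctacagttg
Compared as bases only, the capitals were the same in the 3 alpha genes, shared by Tubb3 and Tubb4b, and different in Tubg1. Tubg1 is not known to be under this control. The amino acids that the capitals encode were not compared, and different bases can encode the same ones.

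Likeness between members also bears on their counts, because only uniquely mapped reads were kept. Over the whole coding sequence, Tuba1b was 98.4% identical to Tuba1c and 98.3% identical to Tuba1a. Of the 150-base windows of the annotated transcript, the length of a read, 53.0% in Tuba1b, 46.7% in Tuba1c and 37.5% in Tuba1a were also found in another gene. For Tubb2b the share was 20.1%, with Tubb2a as partner, and for Tubb4b it was 16.8%, with the pseudogene Tubb4b-ps1. Tubg1 shared 0.9% with Tubg2, and Tubb3, Tubb5 and Tubb6 shared none. The split of counts among the 3 alpha genes is therefore uncertain.

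Total counts lay between 28.6 and 40.2 in units of 1e6 per library. Endogenous counts per ERCC count, a measure of polyadenylated RNA per tube against spiked synthetic RNA, lay between 98.9 and 127.7 at GV and between 47.0 and 87.9 at MII. All 12 oocyte markers, among them Gdf9, Zp3 and Mos, had counts in every group. In bulk pools fewer oocytes and less RNA per oocyte cannot be told apart. The deleted gene, Alkbh5, had a spike-in scaled count, the count times the mean ERCC total of all libraries over that of the library, of 3020 to 13653 in WT and of 50.9 to 260 in KO libraries. Libraries of 1 group stood apart in blood markers: the summed scaled count of 5 red blood cell genes was 528 in WT GV replicate 1 and 220544 in replicate 2, and 32479 in KO MII replicate 1 and 27.2 in replicate 2. At MII, WT replicate 2 and KO replicate 2 also had less endogenous RNA per ERCC count (47.0 and 54.7) than their partners (73.3 and 87.9), and KO MII replicate 2 had the fewest genes with a count (19837).

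Tubb4b was the leading tubulin mRNA of the immature oocyte. Levels between genes are given as the spike-in scaled count per kb of transcript, as mean ± SD of the 2 libraries. In GV oocytes of WT the level of Tubb4b was 8642 ± 901 per kb, above that of every other member in both libraries. Per kb of transcript, the next member was Tuba1c at 1423 ± 22.1, which overlapped Tubb6 at 1421 ± 31.1. Of the tubulins that are no members, Tubb2a at 1948 ± 485.5 and Tuba4a at 1945 ± 342 per kb lay above Tuba1c in both libraries. Tubb5 at 1270 ± 148 overlapped Tuba1b at 1118 ± 204. Tuba1a at 458 ± 23.1, Tubb3 at 439 ± 97.7 and Tubb2b at 350 ± 84.9 per kb formed a lower set in which neighbours overlapped. The level of Tubg1 was 233 ± 64.1 per kb, the lowest of the 9. In KO GV oocytes Tubb4b again led, at 13968 ± 1695 per kb. Among the 9 members it was followed by Tuba1c at 2445 ± 241, and Tubg1 was again lowest at 285 ± 38.0. Tuba4a at 3160.5 ± 469.7 and Tubal3 at 2574.8 ± 252.5 per kb, which are no members, had higher means than Tuba1c. The ranks below Tubb4b depended on how length was counted. Per kb of 150-base windows found in no other gene, a choice made after seeing the data, the WT GV levels of Tuba1c were 2855 and 2919 and those of Tuba1b were 2266 and 2936, which overlapped each other. Both genes then lay above Tubb6, at 1529 and 1577, and Tubb5, at 1234 and 1456. Tubb4b still led, at 10610 and 12299, and Tubg1 was still lowest, at 306 and 207.

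At MII the order was different. Among the 9 members in WT, the level of Tuba1c came highest, at 1220 ± 550 per kb of transcript, above Tubb4b in both libraries. Tubb2a, which is no member, was at 1378 ± 532 per kb and overlapped it. Tubb4b at 480 ± 203, Tuba1b at 453 ± 210 and Tubb3 at 444 ± 111 per kb overlapped as neighbours. Tubb6 was last at 114 ± 37.8 per kb. In KO MII oocytes Tuba1c at 1918 ± 1139 and Tubb4b at 1257 ± 1255 per kb overlapped, and so did every other pair of neighbours, since the 2 KO MII libraries lay far apart.

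**Figure D1:**
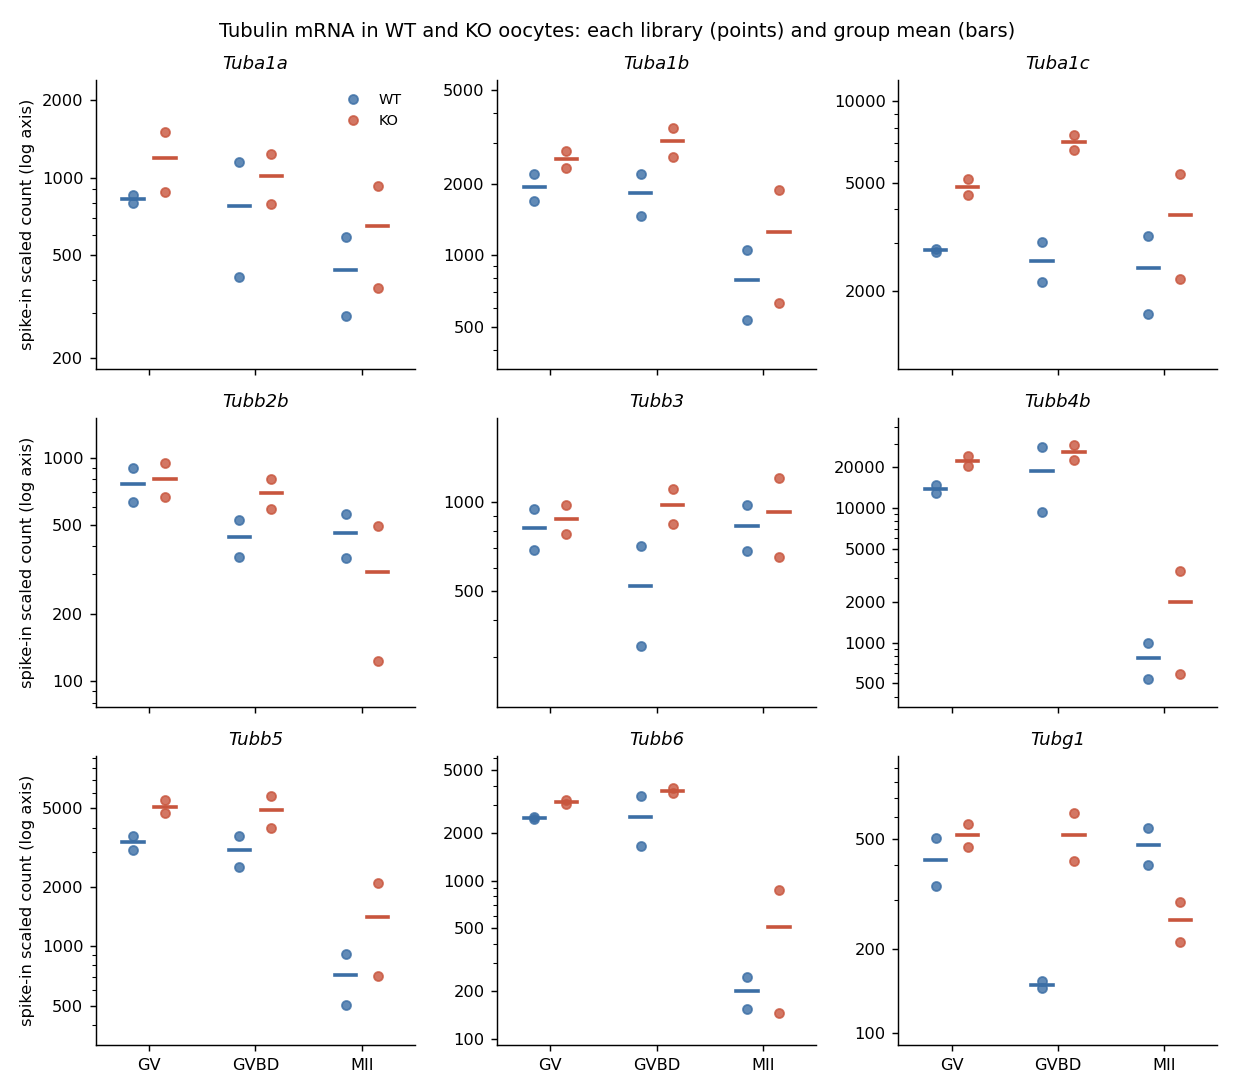
Spike-in scaled count (log axis, a separate scale for each gene) of the 9 tubulin genes at GV, GVBD and MII in WT and KO oocytes; points are libraries, 2 per group, and bars are group means. Tubb4b, Tubb5 and Tubb6 sat lower at MII than at GV in both genotypes, and Tubg1 of WT dipped at GVBD to 145 and 153.

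To ask which tubulin mRNAs were lower in WT oocytes at MII than at GV, these stages were compared with edgeR's quasi-likelihood test. P-values were adjusted by the Benjamini-Hochberg method over all tested genes. A gene counted as changed at an adjusted p under 0.05 and an absolute log2 fold change of at least 1. Counts are of polyadenylated RNA, and the study reports that poly(A) tails of the transcripts it assayed shortened as WT oocytes matured. The part of tail length in these values was not tested. Of the 9 members 4 fell (Tuba1b, Tubb4b, Tubb5 and Tubb6) and none rose, where 30.5% of the 18816 genes tested fell. The median log2 fold change was -0.92 over the members and -1.06 over all genes, so a member at about -1 moved with the pool. Cardiac muscle, platelet, and cumulus and granulosa marker sums were also lower at MII in WT. Red blood cell, keratinocyte and neuron marker sums overlapped between the stages. The summed scaled count of 6 cardiac muscle genes (Tnnt2, Actc1, Myh6 and others, each with counts in both groups) lay between 33990 and 41051 at GV and between 2138 and 5741 at MII. That of 7 platelet genes lay between 307 and 2599 at GV and between 12 and 17.5 at MII. Ppbp, Itga2b, Gp9, Gp1bb and Treml1 were at 0 at MII. The sum of 16 cumulus and granulosa genes lay between 1727.5 and 2019 at GV and between 920.5 and 1649 at MII. For 6 neuron genes it lay between 2180 and 2528 at GV and between 1528 and 2295.5 at MII. For 4 keratinocyte genes it lay between 562 and 644.5 at GV and between 476 and 694 at MII. For 5 red blood cell genes it lay between 528 and 220544 at GV and between 213 and 686 at MII. The 12 oocyte markers summed to between 1174892 and 1281331 at GV and between 671269 and 1013853 at MII. The part of other cells in the tubulin values was not tested.

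Among the beta isotypes, Tubb4b, a ubiquitous isotype also found in cilia, had scaled counts of 12792 and 14827 in the WT GV libraries and of 996 and 537 at MII. No MII library came near a GV library. The log2 fold change was -4.17 ± 0.53 (SE; adjusted p = 2.41e-13, edgeR). Tubb6, a beta isotype of many non-neuronal tissues, went from 2460 and 2537 at GV to 247 and 153 at MII. Its log2 fold change was -3.64 ± 0.55 (adjusted p = 9.1e-10, edgeR). Tubb5, the main beta-tubulin of dividing cells, went from 3086 and 3640 to 919 and 507, a log2 fold change of -2.24 ± 0.51 (adjusted p = 8.74e-05, edgeR). Those 3 genes fell further than the median gene, and they also fell when libraries were scaled by TMM, to the bulk of the oocyte's own mRNA, with log2 fold changes of -3.35, -1.42 and -2.80 for Tubb4b, Tubb5 and Tubb6. The fall of Tubb5 did not pass without WT GV replicate 1 (adjusted p = 0.0946) or without replicate 2 (adjusted p = 0.153, edgeR), while those of Tubb4b and Tubb6 passed without any 1 library.

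The other 2 beta members did not pass. Tubb3, known as the neuronal isotype, had scaled counts of 949 and 691 at GV and of 975 and 683 at MII, with a log2 fold change of 0.02 ± 0.50 (adjusted p = 0.988, edgeR). Its libraries at both stages covered the same range while the pool fell, and under TMM scaling its log2 fold change was 0.88 (adjusted p = 0.0352, edgeR), below the fold minimum. Tubb2b, an isotype of developing neurons, had 893 and 632 at GV and 561 and 354 at MII. Its log2 fold change was -0.74 ± 0.52 with spike-ins (adjusted p = 0.308, edgeR) and turned to 0.11 under TMM and 0.22 under median-of-ratios scaling.

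The alpha members moved less. Tuba1b, a main alpha-tubulin of most cells, had scaled counts of 1698 and 2200 at GV and 1050 and 531 at MII. The libraries did not overlap, and the log2 fold change was -1.30 ± 0.50 (adjusted p = 0.0327, edgeR), close to the median gene. That fall did not pass under TMM (-0.50) or median-of-ratios scaling (-0.36), nor without WT GV replicate 1, WT GV replicate 2 or WT MII replicate 2 (adjusted p = 0.371, 0.600 and 0.113, edgeR). Tuba1a, an alpha isotype best known from neurons, had 797 and 856 at GV and 586 and 291 at MII, a log2 fold change of -0.92 ± 0.52 (adjusted p = 0.180, edgeR) that was 0.02 under median-of-ratios scaling and passed without WT MII replicate 1 (-1.51, adjusted p = 0.0242). Tuba1c, another alpha gene of the same chromosome 15 cluster, had 2789 and 2851 at GV and 3189 and 1647 at MII. Its GV values lay between its MII values, and the log2 fold change of -0.22 ± 0.48 (adjusted p = 0.797, edgeR) turned to 0.59 under TMM and 0.72 under median-of-ratios scaling.

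Tubg1, the gamma-tubulin that nucleates microtubules, had scaled counts of 502 and 338 at GV and of 546 and 400 at MII in WT. The ranges overlapped, with a log2 fold change of 0.17 ± 0.53 (adjusted p = 0.868, edgeR). Relative to the oocyte's own mRNA it rose, by 1.04 under TMM (adjusted p = 0.0388, edgeR) and 1.15 under median-of-ratios scaling (adjusted p = 0.0390, edgeR), so whether Tubg1 counts as changed depended on the scaling. Between those stages its WT GVBD libraries held only 145 and 153, below all other WT libraries.

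**Figure D2:**
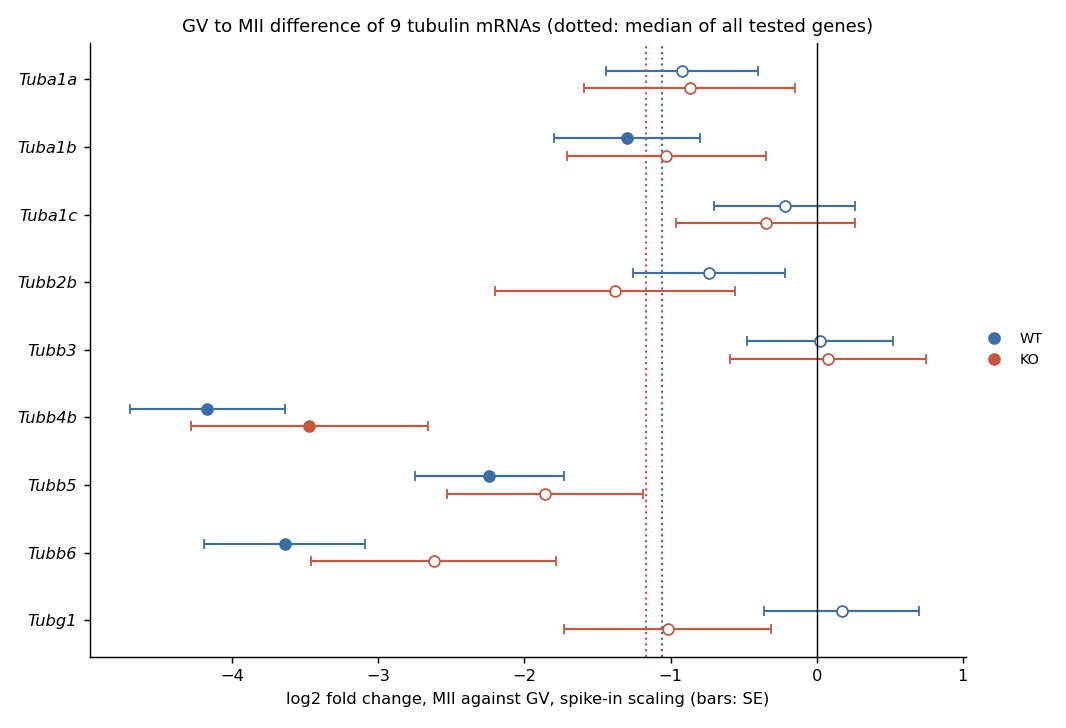
Log2 fold change of MII against GV for the 9 members with spike-in scaling, in WT and KO; bars are standard errors, filled points passed the threshold, and dotted lines are the medians of all tested genes (-1.06 in WT, -1.17 in KO). Tubb4b, Tubb6 and Tubb5 lie left of the dotted lines and Tubb3 lies at 0 in both genotypes.

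The composition of the tubulin mRNA pool can be read without any scaling, as the share of each isotype in the summed level per kb of its family within a library, and is given as a description. Among 8 beta genes, Tubb4b made up 58.1% and 64.0% in the WT GV libraries, 75.9% and 63.1% at GVBD, and 17.1% and 15.7% at MII. Tubb2a, a beta gene that is no member, made up 16.6% and 11.1% of the pool at GV and 48.0% and 46.7% at MII, the largest share there. The share of Tubb3 was 3.7% and 2.6% at GV and 14.3% and 17.0% at MII. Tubb2b likewise went from 3.0% and 2.0% to 7.0% and 7.6%, and Tubb6 from a mean of 10.1% to one of 4.0%. Tubb5 kept a like share, 8.5% and 9.5% at GV and 9.5% and 8.9% at MII, while the summed beta level was 14138 ± 510 per kb at GV and 2898 ± 1065 at MII. Tubb2a itself had scaled counts of 3689 and 2584 at GV and 2824 and 1612 at MII in WT, with a log2 fold change of -0.50 ± 0.48 (adjusted p = 0.489, edgeR).

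Among 8 alpha genes, Tuba4a, which is no member, had the largest share in the WT GV libraries. It made up 25.9% and 22.4% at GV and 10.6% and 10.1% at MII. Tubal3, also no member, made up 15.8% and 16.1% at GV and 26.6% and 25.6% at MII. Tuba1c made up 16.7% and 18.9% in WT GV libraries and 34.6% and 30.6% at MII. Tuba1b stayed between 11.2% and 19.8% in all 6 WT libraries. The summed alpha level per kb was 8032 ± 590 at GV and 3684 ± 1371 at MII. The WT GV shares were also taken with only the 150-base windows found in no other gene in place of transcript length. Of the alpha pool, this put Tuba1b at a mean of 22.2% in place of 14.0% and Tuba1c at 24.6% in place of 17.8%. It put Tuba4a at a mean of 17.4% in place of 24.2%, below both means. In WT GV replicate 1 Tuba4a was at 19.3% and Tuba1b at 18.9%, so these genes overlapped. Tubb4b was at 62.4% in place of 61.0% of the beta pool.

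**Figure D3:**
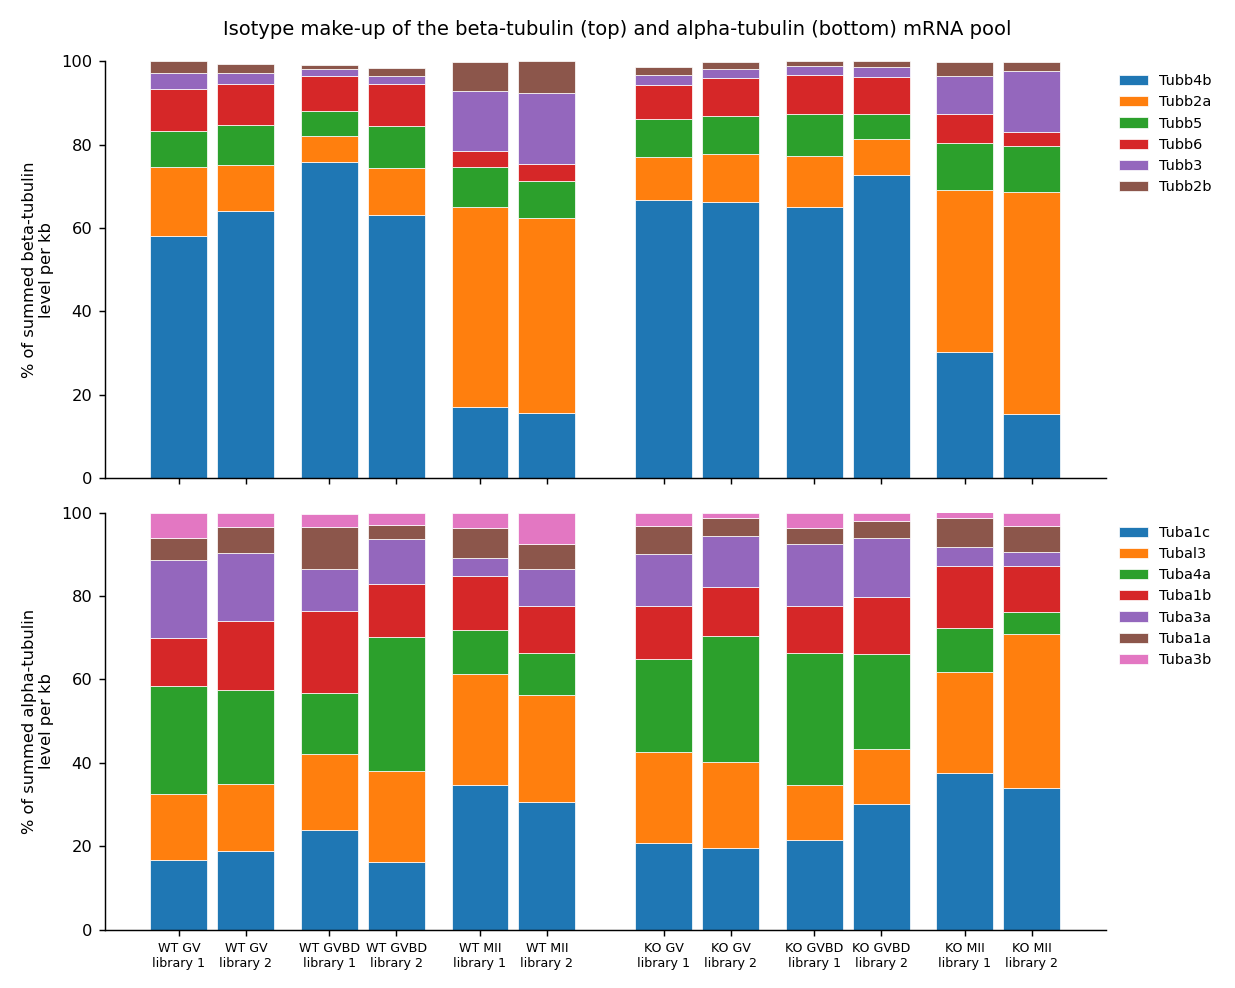
Share of each isotype in the summed level per kb of the beta-tubulin (top) and alpha-tubulin (bottom) genes, 1 bar for each of the 12 libraries; isotypes under 2% in every library are left out. Tubb4b filled over 58% of each GV and GVBD bar and Tubb2a was the largest beta share in each MII bar.

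KO oocytes were compared in the same way to ask whether the tubulin mRNAs were lower at MII there as in WT. The GV and MII libraries used here are the same as in the genotype comparisons at those stages, so the results are not independent of each other. Of the 9 members 1 fell in KO, Tubb4b, where 3.28% of the 18777 genes tested fell. The median log2 fold change was -1.03 over the members and -1.17 over all genes. In KO the cardiac marker sum lay between 25104 and 28300 at GV and between 1738 and 9713 at MII, where Tnnt2, Actc1 and Ankrd1 were at 0, and its part was not tested either. Tubb4b had scaled counts of 24237 and 20406 at GV and of 3428 and 591 at MII, with a log2 fold change of -3.47 ± 0.81 (adjusted p = 0.0480, edgeR). Both MII libraries lay below both GV libraries, and the higher one was KO replicate 1. The call was lost under TMM scaling (-2.64, adjusted p = 0.0525, edgeR) and without KO GV replicate 1 (-3.34) or replicate 2 (-3.59). It was kept without KO MII replicate 1 (-5.24) or replicate 2 (-2.70).

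Tubb6 of KO had 3224 and 3055 at GV and 876 and 146 at MII (log2 fold change -2.62 ± 0.84, adjusted p = 0.0952, edgeR), and Tubb5 had 5491 and 4720 at GV and 2102 and 706 at MII (-1.86 ± 0.67, adjusted p = 0.126, edgeR). Neither passed, although the GV and MII libraries did not overlap. Both passed with the DESeq2 Wald test (adjusted p = 0.00825 for Tubb6 and 0.0356 for Tubb5), which called 3052 of the 18777 genes lower. Without KO MII replicate 1 the log2 fold changes were -4.42 for Tubb6 and -2.85 for Tubb5, where the median over all genes was -2.09. Without KO MII replicate 2 they were -1.84 and -1.28, where the median over all genes was -0.80. Both genes passed in each of these fits, which left 1 library in the KO MII group. Neither passed without KO GV replicate 1 or without KO GV replicate 2. The KO values thus depended on single libraries.

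The remaining KO members had log2 fold changes from -1.38 ± 0.82 for Tubb2b to 0.08 ± 0.67 for Tubb3, with adjusted p of 0.319 to 0.957 (edgeR). Tubb3 had 978 and 778 at GV and 1203 and 652 at MII, again with overlapping libraries. Tubg1 of KO had 563 and 466 at GV and 296 and 212 at MII, which did not overlap, with a log2 fold change of -1.02 ± 0.71 (adjusted p = 0.403, edgeR) that was 0.14 under TMM and 0.16 under median-of-ratios scaling. Tuba1a and Tuba1c of KO also changed sign, from -0.87 and -0.35 to 0.17 and 0.66 under TMM.

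Whether the GV to MII change differed by genotype was tested as an interaction. None of the 9 members passed in edgeR, as was so for all 20807 genes tested (0%). An unadjusted p under 0.05 was reached by 0 members and by 1197 of all genes tested. DESeq2 called 0 members as well. The interaction was 1.02 ± 0.96 on the log2 scale for Tubb6, 0.70 ± 0.94 for Tubb4b and -1.19 ± 0.77 for Tubg1, each with an adjusted p of 1 (edgeR). The standard errors of these 3 were 0.77 to 0.96 on the log2 scale, which sets how small a difference could have been detected. In the beta pool of KO, Tubb4b made up 66.8% and 66.1% at GV and 30.2% and 15.4% at MII, and Tubb2a 10.3% and 11.6% at GV and 39.0% and 53.1% at MII.

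At GV, before maturation, KO was compared with WT to ask whether the stored tubulin mRNA differed at the start. No member passed in edgeR, where 0.0977% of the 19452 genes tested passed. By unadjusted p under 0.05 there were 3 members (Tuba1c, Tubb4b and Tubb5), against 3475 of the 19452 genes tested. DESeq2 called 0 with the fold minimum, although its adjusted p was 0.00101, 0.00314 and 0.0259 for these 3. Both KO libraries lay above both WT libraries for 6 of 9 members, against 42.2% of all genes tested, and the median log2 fold change was 0.40 over the members and 0.36 over all genes. Tuba1c had 2789 and 2851 in WT and 5183 and 4507 in KO, with a log2 fold change of 0.78 ± 0.17 (adjusted p = 0.153, edgeR). Tubb4b had 12792 and 14827 in WT and 24237 and 20406 in KO (0.69 ± 0.18, adjusted p = 0.173, edgeR), and Tubb5 had a log2 fold change of 0.60 ± 0.18 (adjusted p = 0.198, edgeR). These 3 genes did not overlap between genotypes, and under TMM scaling their log2 fold changes were 0.45, 0.36 and 0.27. The log2 fold changes of Tubb2b (0.07), Tubb3 (0.10) and Tubg1 (0.29), whose libraries overlapped between genotypes, turned to -0.27, -0.24 and -0.04 under TMM, and that of Tubb6 (0.33) to -0.01 under median-of-ratios scaling.

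At GVBD no member passed in edgeR, where 2.54% of the 19462 genes tested passed. An unadjusted p under 0.05 was reached by 2 members, Tuba1c and Tubg1, and by 2901 of the 19462 genes tested. DESeq2 called these 2 members, and of all genes 476 higher and 425 lower. Both KO libraries lay above both WT libraries for 7 of 9 members, against 30.3% of all genes tested, with a median log2 fold change of 0.67 over the members and 0.23 over all genes. Tuba1c had scaled counts of 3016 and 2152 in WT and of 7511 and 6640 in KO. That is a log2 fold change of 1.45 ± 0.51 (adjusted p = 0.152 with edgeR and 0.0187 with DESeq2), and 1.18 under TMM. Tubg1 had 145 and 153 in WT and 620 and 414 in KO, a log2 fold change of 1.79 ± 0.58 (adjusted p = 0.114 with edgeR and 0.0283 with DESeq2).

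The WT GVBD libraries disagreed on several members. Tubb4b was 28102 in replicate 1 and 9373 in replicate 2, against 22628 and 29081 in KO, and Tuba1a was 1144 and 411 against 1238 and 789. Without WT GVBD replicate 2 the KO to WT log2 fold changes of Tubb4b (0.46) and Tuba1a (0.38) turned to -0.12 and -0.18. Tuba1b (0.73), Tubb2b (0.66), Tubb3 (0.91), Tubb5 (0.67) and Tubb6 (0.55) had higher KO libraries without overlap and an adjusted p of 0.483 or more (edgeR).

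At MII no member passed in edgeR, where 0.803% of the 17566 genes tested passed. An unadjusted p under 0.05 was reached by 0 members and by 1286 of all genes tested. DESeq2 called 0 members. For 0 of 9 members did both KO libraries lie above both WT libraries, against 22.1% of all genes tested, and the median log2 fold change was 0.65 over the members and 0.30 over all genes. Tubb4b had 996 and 537 in WT and 3428 and 591 in KO, a log2 fold change of 1.39 ± 0.84 (adjusted p = 0.887, edgeR). The higher value came from KO replicate 1 alone. Tubb6 had 247 and 153 in WT and 876 and 146 in KO, with a log2 fold change of 1.35 ± 0.91 (adjusted p = 0.965, edgeR). Without KO MII replicate 1 the sign turned for the 7 members with a positive value, with -0.37 for Tubb4b and -0.45 for Tubb6, where the median over all genes was -0.45. Tubb2b (-0.57) turned to 0.11 without KO MII replicate 2, and Tubb3 (0.16) to -0.14 under TMM. The red blood cell marker sum was 32479 in KO MII replicate 1 and 27.2 in replicate 2, and its part in the tubulin values was not tested. For Tubg1 both KO libraries lay below both WT libraries, at 296 and 212 against 546 and 400. Its log2 fold change was -0.90 ± 0.90 (adjusted p = 1, edgeR). The share of all genes with KO below WT in this way was not computed.

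**Figure D4:**
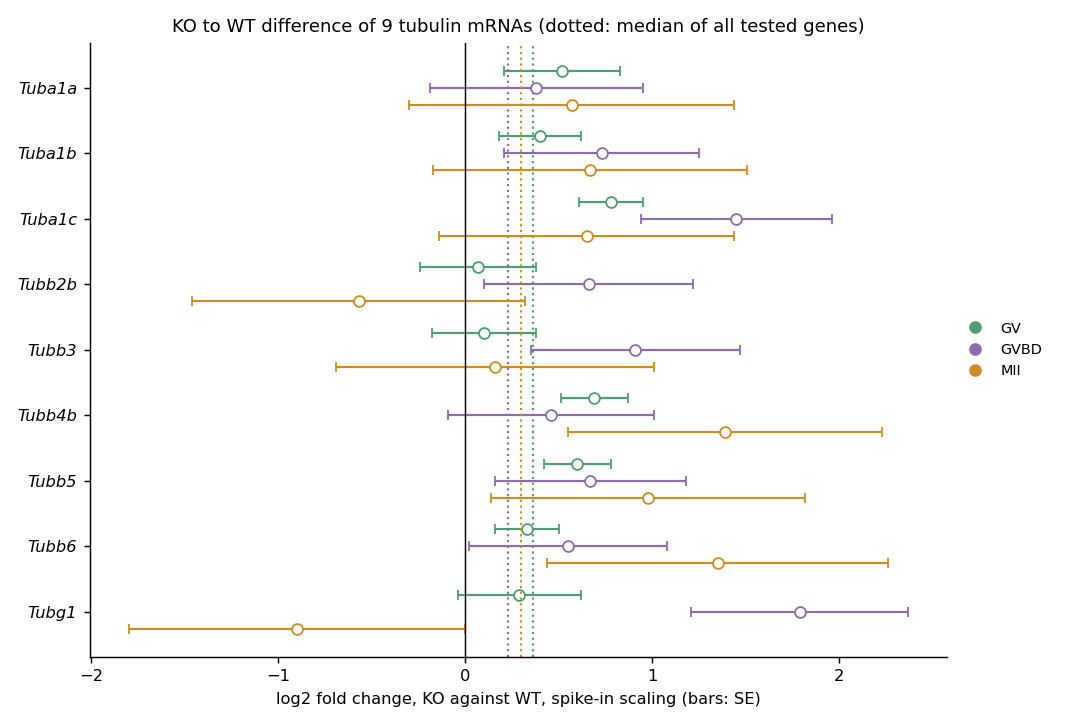
Log2 fold change of KO against WT at GV, GVBD and MII for the 9 members with spike-in scaling; bars are standard errors, open points did not pass the threshold, and dotted lines are the medians of all tested genes (0.36, 0.23 and 0.30). All points are open; Tubg1 lies right of 0 at GVBD (1.79) and left of it at MII (-0.90).

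When the 6 KO and 6 WT libraries were fitted together with a term for stage, no member passed in edgeR, where 1.26% of the 22004 genes tested passed. Tuba1c, Tubb4b and Tubb5 had an unadjusted p under 0.05 in edgeR, as did 4146 of all genes tested. DESeq2 called 0 members. Its unadjusted p was under 0.05 for 5 members and for 5046 of all genes tested. Every member had a positive log2 fold change, from 0.05 ± 0.36 for Tubb2b, which turned to -0.26 under TMM, to 0.96 ± 0.27 for Tuba1c (adjusted p = 0.0954, edgeR), where the median over all genes was 0.29. Tuba1c passed without KO MII replicate 2 (1.13, adjusted p = 0.0227, edgeR). With DESeq2 or the replicate block, its adjusted p was 0.0133 and 0.0361 at log2 fold changes of 0.96 and 0.95, just below the fold minimum. Under TMM its log2 fold change was 0.69 (adjusted p = 0.0284, edgeR). Tuba1c was higher in the mean of KO than of WT at each stage, and its single libraries overlapped between genotypes at MII. This test uses the same libraries as the 3 comparisons by stage.

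Of 11 other tubulin genes on the list, 10 were tested in WT between GV and MII, and 3 fell: Tuba3a, an alpha isotype best known from testis (-2.65 ± 0.53, adjusted p = 5.93e-06), Tuba4a, an alpha isotype whose gene lacks the codon for the C-terminal tyrosine (-2.34 ± 0.50, adjusted p = 2.63e-05), and Tubd1, the delta-tubulin of centrioles (-2.14 ± 0.53, adjusted p = 0.000338, edgeR). Over all genes tested 30.5% fell, and the median log2 fold change was -0.96 over the 10 and -1.06 over all genes. Tuba4a and Tubd1 did not pass without WT GV replicate 1 (adjusted p = 0.140 and 0.144) or replicate 2 (0.0703 and 0.112), nor Tuba3a without WT GV replicate 1 (0.0699, edgeR). In KO 0 of 9 tested passed, against 3.28% of all genes, with a median log2 fold change of -1.30 against -1.17. Tubg2, the second gamma-tubulin gene, carried 70.9% to 79.8% of the gamma level per kb in WT libraries and 76.4% to 87.5% in KO, so Tubg1 was the minor gamma transcript throughout.

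Of the other tubulins at GVBD, 2 of 11 tested differed between KO and WT, where 2.54% of the 19462 genes tested passed. The median log2 fold change was 0.98 over the 11 and 0.23 over all genes. Tubg2 had scaled counts of 556 and 417 in WT and of 1958 and 2115 in KO, a rise of 2.07 ± 0.53 on the log2 scale (adjusted p = 0.0417, edgeR). It did not pass under TMM (1.80, adjusted p = 0.0903), with the replicate block (2.08, adjusted p = 0.0805) or without any 1 of the 4 libraries (adjusted p = 0.201 to 0.316, edgeR). Both gamma-tubulin genes were thus low in the WT GVBD libraries, with a summed level of 360 ± 53.0 per kb against 866 ± 127 at GV and 1034 ± 242 at MII, while KO GVBD held 1448 ± 17.5.

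Tubb1, the beta-tubulin of platelets and megakaryocytes, had 276 and 220 in WT GVBD and 0 in both KO GVBD libraries, where it was at least 60.2-fold lower, against a floor of 3 counts per library (adjusted p = 2.59e-05, edgeR). Elsewhere the scaled count of Tubb1 was 0 and 176 in WT and 446 and 106 in KO at GV. At MII it was 3.2 and 0 in WT, and 33.0 and 0 in KO. It did not pass without WT GVBD replicate 1 (adjusted p = 0.166) or replicate 2 (adjusted p = 0.131, edgeR). Platelet markers moved with it: the summed scaled count of 7 genes lay between 2650 and 4322 in WT GVBD and between 251 and 268 in KO GVBD, where Ppbp, Gp9, Gp1bb and Treml1 were at 0. The 5 red blood cell genes summed to between 88436 and 144769 in WT GVBD and between 210 and 296 in KO GVBD. Of the 4 listed keratins, Krt14, Krt5 and Krt1 had counts in WT GVBD and in no other group, while Krt10 had counts in every group. The part of blood or skin RNA in any member was not tested. Summed over 16 genes, cumulus and granulosa markers lay between 1618 and 1931 in WT GVBD and between 2107 and 3598 in KO GVBD, with Amhr2 and Foxl2 at 0 in both.

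The other listed genes are read against all genes tested between GV and MII in WT, of which 30.5% fell with a median log2 fold change of -1.06. Of 21 folding genes, which encode the CCT chaperonin, prefoldin and the tubulin cofactors, 11 fell and none rose, with a median log2 fold change of -1.31. Pfdn6, a prefoldin subunit, had a log2 fold change of -5.31 ± 0.59 (adjusted p = 3.47e-17), Arl2, a GTPase of the tubulin cofactor cycle, of -3.32 ± 0.52 (adjusted p = 6.29e-09), and Tbcc, a tubulin cofactor, of -3.68 ± 0.79 (adjusted p = 3.3e-05, edgeR). These 3 also fell under TMM scaling and without any 1 library. The chaperonin subunits Cct3 (-2.08) and Tcp1 (-1.80) and the prefoldin subunit Vbp1 (-2.10) were also among the 11, and lost the call when either WT GV library was left out (adjusted p of 0.109 to 0.353, edgeR). Tcp1 also fell short of the fold minimum under TMM (-0.97) and median-of-ratios scaling (-0.83). Of the 3 autoregulation genes, with a median of -1.46, 2 fell, Ttc5 (-2.36 ± 0.75, adjusted p = 0.00743) and Cnot11 (-1.46 ± 0.50, adjusted p = 0.0133, edgeR). Neither passed under TMM scaling, with -1.59 and -0.59, nor without either WT GV library (adjusted p of 0.0722 to 0.499), and Ttc5 was also lost without WT MII replicate 2 (adjusted p = 0.120, edgeR).

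Of 9 genes of the gamma-tubulin ring complex only Mzt2, a small adaptor subunit, passed, in both genotypes. Over all genes tested 30.5% fell in WT and 3.28% in KO. The median log2 fold change of the 9 was -0.70 in WT and -1.29 in KO, against -1.06 and -1.17 over all genes. In WT it fell by 4.0 ± 0.61 on the log2 scale (adjusted p = 1.53e-09, edgeR). The KO value was -3.52 ± 0.80 (adjusted p = 0.0464, edgeR), and that call was lost under TMM scaling (-2.29) and without KO GV replicate 1 or 2 (adjusted p = 0.485 and 0.535). Of 14 tubulin modification genes tested in WT, 3 fell: Svbp, a partner of the vasohibin detyrosinases (-1.89), Tpgs2, a polyglutamylase subunit (-1.37), and Hdac6, a tubulin deacetylase (-1.64). The median over the 14 was -0.83, against -1.06 over all genes. Svbp, Tpgs2 and Hdac6 did not pass with the fold minimum under TMM scaling, nor without either WT GV library (adjusted p of 0.173 to 0.462), and Hdac6 was also lost without WT MII replicate 2 (adjusted p = 0.179, edgeR). No folding, autoregulation, ring complex or modification gene passed between KO and WT at GV, GVBD or MII in edgeR.

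The genes most like each abundant member over the 12 libraries were named by Pearson's r of log2 CPM after TMM scaling, among 10831 genes, as a description in which libraries share stage and depth. Tubb4b and Tubb6 were among the 3 closest genes of each other (r = 0.993), and both lay close to Thap4 (0.995 and 0.996). For Tubb5 the closest were Arg2 (0.991), Rpa2 (0.988) and Rfc2 (0.987). The alpha genes had looser neighbours, Fanci (0.959) for Tuba1b and Zmynd19 (0.948) for Tuba1c.

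The end of the transcripts was searched for a cytoplasmic polyadenylation element, the motif through which stored oocyte mRNAs are adenylated and translated, spelled TTTTAT or TTTTAAT, on the transcript strand in the last 100 bases. It was found in 2 of 9 members, and in 17.8% of 19264 protein-coding transcripts. The matches, with the motif in capitals, are shown as a description of these letters only.
Tubb2b, chr13:34126761-34126790, minus strand: aagttatatcatTTTTATgatgctgggaat
Tubb3, chr8:123421916-123421945, plus strand: gtctgtTTTTATggtttgttttgttttttt
The pseudogene Tubb4b-ps1, which shares windows with Tubb4b, had scaled counts of 628 and 392 at GV and 19.1 and 33.7 at MII in WT, so its counts were low beside those of Tubb4b at each stage.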

How the data were processed

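Per the study's methods, polyadenylated RNA of small oocyte pools with ERCC RNA added before reverse transcription was amplified as full-length cDNA and sequenced as paired reads of 150 bases. The labels' notes name cutadapt 1.9, HISAT2 2.0.4, StringTie 1.3.4d and build mm10, and only uniquely mapped reads were kept. The authors deposited raw counts per gene, with no normalization, for 56691 genes and 92 ERCC sequences; the step that made whole-number counts and its annotation are not given in the sources used here, nor is its use of strand. The labels describe another library protocol, from purified mRNA with strand marking. Counting intervals would cover counting error only, since reads carry no molecular identifiers.

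Counts of all genes were fitted with edgeR 4.0.16 (R 4.3.3; glmQLFit, glmQLFTest, filterByExpr) with library sizes in proportion to summed ERCC counts, in 7 comparisons, two-sided. Standard errors are the log2 fold change over the square root of F. Symbols matched 52073 genes (91.9%). Alternatives were TMM and median-of-ratios scaling, no filter, DESeq2 1.42.0, a block for replicate number and fits without each library. The members, lists and tests were chosen with earlier results of these data known. All 9 members are named in each comparison, and other listed genes where they passed, up to 6 per list by adjusted p, or for their level where the mean was at least 100 counts. Likeness used a pseudocount of 0.5 and genes whose mean count reached 50, for members whose mean reached 1000. Tests were checked on simulated counts.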

Additional observations from a re-analysis of the deposited data

Results flagged for a closer look

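The KO to WT difference of Tubg1 had opposite directions at 2 stages: both KO libraries lay above both WT libraries at GVBD and below both at MII, where the log2 fold change was -0.90. Tuba3b, an alpha isotype that is no member, did the same, with -0.92 at MII and 1.16 at GVBD. The difference between these stages was then tested as an interaction over the GVBD and MII libraries, a test chosen after seeing the values. It gave -2.69 ± 0.94 on the log2 scale for Tubg1 (adjusted p = 0.599) and -2.08 ± 0.97 for Tuba3b (adjusted p = 0.815, edgeR), so neither passed. Of the 20765 genes tested 12 passed with a positive value and 1 with a negative value. Both genes were picked by their opposite directions, and the share of all genes with such a pattern was not computed.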

How the results depend on the processing

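With spike-in, TMM or median-of-ratios scaling, no filter, DESeq2 or a replicate block, the count of members that passed stayed at 0 for KO against WT at GV and MII and for the interaction. At GVBD DESeq2 called 2 members, and over all stages leaving out 1 library gave 0 to 1. For MII against GV in WT the count was 4 under each other setting, with Tubg1 (higher) in place of Tuba1b under TMM and median-of-ratios scaling, and 2 to 5 when 1 library was left out. In KO it was 1, against 0 under TMM, 2 without a filter, 3 with DESeq2 and 2 with the replicate block. Over all genes, those called lower in KO numbered 615 of 18777 in the main fit and 689 under TMM. They numbered 3052 with DESeq2, 2454 with the replicate block and 2632 of 28535 without a filter. When 1 library was left out the KO count of members moved both below and above 1, over a wider range than in WT. The median over all genes then lay between -2.09 and -0.80. The cause was not tested. Dropping a library leaves a group with 1 library, assumed to vary like the others.

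TMM or median-of-ratios scaling, which remove the shift of the pool (the median over all genes moved from -1.06 to -0.22 or -0.08 for MII against GV in WT), turned the sign of these log2 fold changes. For KO against WT at GV, Tubb2b became -0.27 or -0.30, Tubb3 -0.24 or -0.26, Tubg1 -0.04 or -0.07, and Tubb6 -0.01 under median-of-ratios only. At MII Tubb3 became -0.14 under both, and over all stages Tubb2b -0.26 or -0.29. For MII against GV in WT, Tuba1c became 0.59 or 0.72, Tubb2b 0.11 or 0.22, and Tuba1a 0.02 under median-of-ratios only. In KO, Tuba1a became 0.17 or 0.18, Tuba1c 0.66 or 0.67 and Tubg1 0.14 or 0.16. The split of all genes that rose or fell in WT moved from 74 and 5747 to 1329 and 3193 under TMM, and in KO from 1 and 615 to 217 and 689 (16 and 3052 with DESeq2). For KO against WT the split moved from 11 higher and 8 lower to 8 and 11 at GV (530 and 136 with DESeq2), from 157 and 337 to 4 and 28 at GVBD (476 and 425), from 88 and 53 to 23 and 20 at MII (260 and 86), and from 198 and 80 to 251 and 348 over all stages (1037 and 319). The interaction gave 0 genes, 61 and 8 under TMM and 91 and 63 with DESeq2, and 1197 at an unadjusted p under 0.05. Without a filter it gave 135 and 211.

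Leaving out 1 library turned signs in these ranges of log2 fold change. For KO against WT at GV the ranges were Tubb2b -0.20 to 0.34, Tubb3 -0.11 to 0.34. At GVBD they were Tuba1a -0.18 to 1.30, Tubb4b -0.12 to 1.46. At MII they were Tuba1a -0.23 to 1.16, Tuba1b -0.32 to 1.25, Tuba1c -0.13 to 1.21, Tubb2b -1.90 to 0.11, Tubb3 -0.35 to 0.54, Tubb4b -0.37 to 2.16, Tubb5 -0.01 to 1.56, Tubb6 -0.45 to 2.13. For MII against GV in WT they were Tuba1c -0.78 to 0.18, Tubb3 -0.26 to 0.26, Tubg1 -0.09 to 0.48. In KO they were Tuba1c -1.14 to 0.16, Tubb3 -0.43 to 0.46. For the interaction they were Tuba1a -0.75 to 0.64, Tuba1b -0.72 to 0.86, Tuba1c -0.91 to 0.43, Tubb2b -1.97 to 0.04, Tubb3 -0.44 to 0.44, Tubb4b -1.07 to 1.47, Tubb5 -0.61 to 0.96, Tubb6 -0.78 to 1.80. Over all stages the range was Tubb2b -0.09 to 0.30.

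Replicate numbers in the titles do not state a pairing. Deviations of same-numbered libraries correlated at -0.22 for WT and KO at GV, -0.01 at GVBD, -0.13 at MII and 0.02 for GV and MII within either genotype, over 13273 genes. The replicate block left the count of members that passed at 0 in each KO against WT comparison and the interaction, at 4 in WT and gave 2 in KO for MII against GV. With crossed numbers at GV and MII, added after seeing these correlations, the count was 0 at both.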
